A study of Mus musculus with 4 samples.

Results

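The coelomic epithelium is the sheet of mesodermal cells that lines the body cavity and covers the genital ridge. At E11.5, 875 of the 4916 cells of the library (17.8%, exact 95% interval 16.7 to 18.9) met the rule for it, out of 19387 cells over the 4 stages of the study. The cells were chosen by their RNA. A cell was kept with at most 1 of 6 germ cell genes above 0 (Dazl, Ddx4, Dnd1, Mael, Dppa5a and Mov10l1), with Upk3b above 0 and with at least 2 of 5 epithelial genes above 0 (Upk3b, Krt19, Krt7, Upk1b and Tm4sf5). The mean deposited value of those 5 genes also had to be above that of 5 genes of the supporting lineage (Fst, Wnt4, Wnt6, Irx3 and Runx1). The main comparison group was 2258 E11.5 cells with at least 3 of these supporting genes above 0 and the higher mean for them, called supporting-rule cells below.

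XX gonads of C57BL/6 mouse embryos were dissociated and profiled, 1 day apart from E11.5 through E14.5, with droplet-based 3′ single-cell RNA sequencing, with 1 library per stage. The labels name no treatment and no engineered allele in any group, and the number of embryos behind a library is not given in the sources used here. Both E11.5 groups were cells of the same library. Cells are not replicates, so no difference was tested and no p-value is given, and every interval is an exact 95% interval that covers counting error alone.

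As background, coelomic epithelial cells divide, leave the surface and supply somatic cells to the early gonad, among them the supporting cells that become granulosa cells in the ovary. The sheet that stays outside matures into a mesothelium, which carries keratins, the uroplakin Upk3b and Bnc1. Cells of the posterior trunk also carry a positional code of HOX genes, which are grouped in chromosomal clusters and switched on in the order in which they lie there.

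The libraries held 69458291 to 80377418 unique molecular identifiers (UMIs, each standing for 1 captured RNA molecule) in all, the most at E11.5. The 875 cells held 14389104 UMIs, and the median cell had 15396 UMIs and 3802 detected genes. The supporting-rule cells were slightly shallower, with a median of 14034.5 UMIs and 3607.5 genes, and 2182 of them had at most 1 germ cell gene. The median share of mitochondrial UMIs was 3.17% in the epithelial cells and 3.97% in the supporting-rule cells. A doublet caller marked 15 epithelial cells (1.71%) and 90 supporting-rule cells (3.99%). The E11.5 library shared 36, 36 and 32 cell barcodes with the later libraries in stage order, of which 7, 5 and 3 belonged to the epithelial cells.

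Of the 875 cells, 201 had exactly 2 of the 5 epithelial rule genes, 337 had 3, 261 had 4 and 76 had all 5. Tm4sf5, a membrane protein related to tetraspanins, had a UMI in 763 cells, the keratin gene Krt7 in 607, Krt19 in 320 and the uroplakin gene Upk1b in 272. No supporting rule gene was seen in 371 cells, 1 in 313, 2 in 142 and 3 or more in 49. The difference between the 2 means ranged from 0.0137 to 1.44 on the natural log scale, with a median of 0.56. The 3 cells closest to the boundary inside had differences of 0.0137, 0.0193 and 0.023, and the closest outside had 0, 0 and -0.000283. The count depended on depth, since the same rule on cells thinned to 5000 UMIs took 560 cells. Another 87 cells had Upk3b and at least 2 epithelial genes without the higher mean. With the higher mean, 46 cells had Upk3b as their single epithelial gene, and 64 had at least 2 epithelial genes but no Upk3b.

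**Figure D1:**
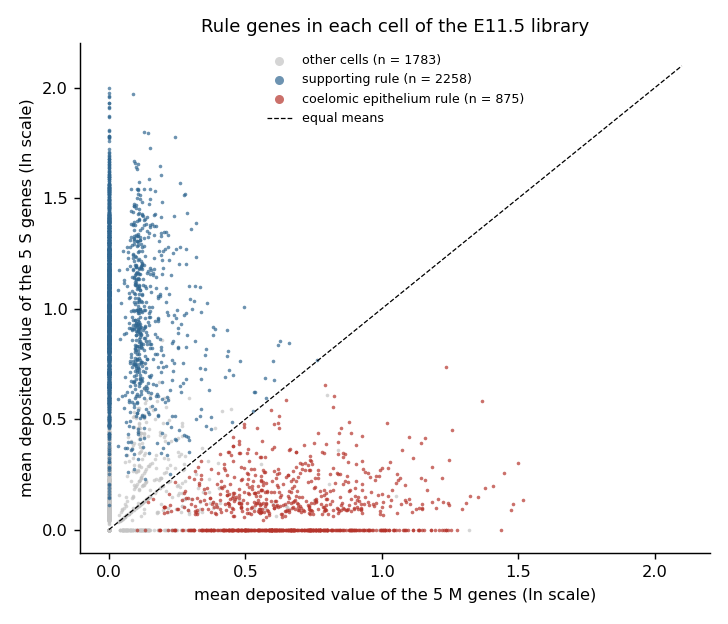
Mean deposited value (natural log scale) of the 5 epithelial rule genes M (horizontal axis) and the 5 supporting rule genes S (vertical axis) in each E11.5 cell, with the line of equal means dashed. The 875 epithelial cells (red) lie below the line by construction, many of them at 0 on the vertical axis, and the 2258 supporting-rule cells (blue) lie above it.

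These levels follow from the rule and are given as a description. In UMIs per 1000000 UMIs of the group (CPM), Upk3b stood at 339 (329.9 to 349) in the epithelial cells and 7.85 in the supporting-rule cells. Tm4sf5 stood at 192 and 5.48, Krt7 at 106 and 17.3, Krt19 at 51.7 and 2.68, and Upk1b at 26.7 and 0.635. The promoter window of Upk3b, the gene on which the rule depends most, is shown with CG dinucleotides in capitals, from 250 bases before to 50 after its RefSeq start (GRCm38.p6, chr5:136038246-136038545, plus strand). It holds 2 CG dinucleotides, where the median of 32851 RefSeq promoter windows of the same length is 7.
Upk3b: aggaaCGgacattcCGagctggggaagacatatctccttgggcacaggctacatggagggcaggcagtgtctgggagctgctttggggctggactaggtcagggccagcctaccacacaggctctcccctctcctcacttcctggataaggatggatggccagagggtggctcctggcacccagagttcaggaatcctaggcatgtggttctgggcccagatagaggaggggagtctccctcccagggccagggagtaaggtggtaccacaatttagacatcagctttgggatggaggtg

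The markers given for these cells include Hpgd and Hoxd9, which the rule did not use. They were named with earlier results of these data known, so their levels describe the cells and are no independent check of the label. Both were above the supporting-rule level. Hpgd, which encodes the enzyme that inactivates prostaglandins, stood at 126 CPM (120.2 to 132) against 6.81, an 18.5-fold ratio. After every cell was thinned to 5000 UMIs, which left out no cell, Hpgd had a UMI in 35.2% of the epithelial cells (32 to 38.5), 2.13% of the supporting-rule cells and 21.5% of 191 cells with endothelial markers. The unthinned share in the epithelial cells was 56.1%, and the median depth was 16647 UMIs in the endothelial group. Hpgd UMIs were thus also found in endothelial-marker cells, though at the lower level of 64.7 CPM. For Hoxd9 the thinned shares were 77.5%, 10.7% and 12%, with 39.5% in 707 cells with mesenchyme markers, where it stood at 146 CPM, and the unthinned share in the epithelial cells was 93.8%.

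Mesothelial genes outside the rule were higher in the epithelial cells in part. Of the 13 listed, 7 met the minimums of at least 50 UMIs over both groups and 20 CPM in the higher group, 5 of these were at least 2-fold higher and none was 2-fold lower. Over all genes, 5963 met the minimums, 522 were at least 2-fold higher in the epithelial cells (8.75%) and 582 at least 2-fold lower (9.76%), with a median log2 ratio of 0.04. Since the rule chose both groups of this contrast, no member count is read against those shares.

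Bnc1, a zinc finger protein of mesothelial and germinal epithelia, stood at 37.9 CPM (34.8 to 41.2) in the epithelial cells, 2.37 in the supporting-rule cells and 5.05 in 707 cells with mesenchyme markers. Its relative Bnc2 differed less, at 35.7 and 15 CPM in the epithelial and supporting-rule cells. Lrrn4, a leucine-rich repeat membrane protein known as a mesothelial marker, stood at 40.6 (37.4 to 44), 2.89 and 4.94 CPM in the same 3 groups. Ezr, which encodes the actin linker ezrin of microvilli, stood at 107, 26.3 and 19.2 CPM. Podxl, the sialomucin podocalyxin, was near equal in the epithelial and supporting-rule cells at 110.5 and 120.8 CPM and lower in the mesenchyme-marker cells at 20.5. Wt1, a zinc finger regulator of the coelomic epithelium and its derivatives, was also near equal, at 513, 532 and 442 CPM. Not every listed gene was higher in the epithelial than in the mesenchyme-marker cells. Below the minimums, Nkain4 stood at 6.46 and 25.2 CPM in these groups, Tbx18 at 2.015 and 4.31, and Efemp1 at 0.695 and 1.68. Gpm6a, at 7.85 and 1.37 CPM, and Muc16, at 4.59 and 0.421, went the other way.

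Some mesothelial and uroplakin genes outside the rule were low or close to absent. Msln (mesothelin) was at 0.0695 CPM, and Muc16, the mucin that binds it, was at 4.59 CPM against 0.289 in the supporting-rule cells. The uroplakin genes Upk2 and Upk3a had 0 UMIs in the epithelial cells, and 3 UMIs, the floor used in ratios for a count of 0, would correspond to 0.209 CPM. The simple-epithelium keratins Krt8 and Krt18 were within 2-fold of the supporting-rule cells, at 59.8 and 83.5 CPM against 83.5 and 59. Krt14 stood at 11.8 and 1.24 CPM.

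Junction and polarity genes gave a mixed picture, with 2 of 7 tested members higher and 1 lower. Cdh1 (E-cadherin) had 0 UMIs in the epithelial cells. Cdh3 (P-cadherin) stood at 44.6 CPM against 15, and Crb2, an apical polarity protein of the Crumbs family, at 29 against 4.67. Cdh2 (N-cadherin) was within 2-fold, at 46.6 and 25.8 CPM. Pkp2, a desmosomal plakophilin, was the lower member, at 5.07 against 46.6 CPM. Among matrix and basement membrane genes 2 of 6 were higher, Fn1 and Nid2. The fibronectin gene Fn1 stood at 65.7 against 10.01 CPM, and Nid2, which encodes the basement membrane linker nidogen-2, at 26.6 against 3.64. In the mesenchyme-marker cells they were near the epithelial level, at 71.1 and 23.55 CPM. The whole list summed to 2174 CPM there, against 1021 in the epithelial cells.

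Of 5 tested genes of epithelial-mesenchymal transition, 2 were higher and 1 lower. The zinc finger repressor gene Snai2 stood at 53.5 CPM against 25.5 in the supporting-rule cells, and Cdh11, a cadherin gene of mesenchyme, at 28 against 6.12. Vim, the intermediate filament gene vimentin, was lower, at 359 against 756 CPM. All 3 were higher in the mesenchyme-marker cells than in the epithelial cells, with Snai2 at 109, Cdh11 at 61.2 and Vim at 674 CPM. In the YAP list, 2 of 6 tested genes were higher, Amotl2 (53.4 against 18.2 CPM) and Ajuba (39.5 against 15.8 CPM), both regulators of Hippo signalling. Wwtr1, which encodes the coactivator TAZ, was lower at 48 against 105 CPM, and the target gene Cyr61 was level at 231 and 229 CPM.

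**Figure D2:**
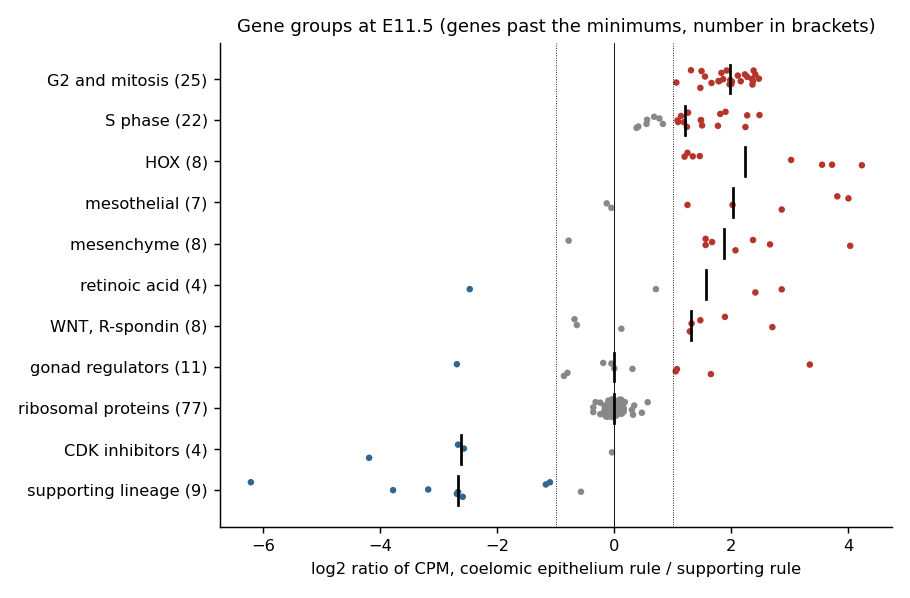
Log2 ratio of CPM between the epithelial cells and the supporting-rule cells (horizontal axis) for each gene that met the minimums in 11 gene groups (vertical axis, number of genes in brackets), with the median of each group as a black bar and ratios of 2 as dotted lines. Red points are at least 2-fold higher and blue points at least 2-fold lower in the epithelial cells. All 25 tested G2 and mitosis genes lie on the higher side, 8 of 9 supporting lineage genes on the lower side, and all 77 ribosomal protein genes between the dotted lines.

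By size of ratio, the 15 genes furthest above the supporting-rule level outside the rule and the ribosomal and mitochondrial genes were S100a8, Kif26b, Tmem151a, Hoxd10, Hpgd, Cpz, Dcn, Bnc1, S100a9, Lrrn4, Tmem108, Hoxd8, Hoxd9, Alcam and Tcf21. Kif26b, a kinesin family member, was 23-fold higher (37.9 against 1.64 CPM) and the membrane protein gene Tmem151a was 20.6-fold higher (66.1 against 3.2 CPM). Cpz, a carboxypeptidase with a frizzled-like domain, was 18.2-fold higher, Tmem108 13.7-fold and the cell adhesion gene Alcam 10.5-fold. In all of these the cell with the most UMIs held at most 1.32% of the total of the 875 cells. S100a8 and S100a9, alarmin genes of neutrophils, were different. A single cell held 97.6% of the S100a8 UMIs and 95.1% of the S100a9 UMIs, and the doublet caller had not marked it.

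At the other end stood Ppbp, Sprr2d, Gm2044, Tgm3, Cyp11a1, Siglecg, Klk1, Ccdc182, Susd3, Cpa1, Elfn1, Chst4, Pf4 and Bst2. The interferon-induced membrane gene Bst2 stood at 16.2 CPM in the epithelial cells and 498 in the supporting-rule cells, 30.7-fold apart, and the transglutaminase gene Tgm3 at 2.15 and 109.6 CPM. Sprr2d, a small proline-rich protein gene, stood at 1.18 and 87.5 CPM. In the mesenchyme-marker cells Bst2 stood at 52.1 CPM. Cyp11a1, the enzyme that starts steroid synthesis, was 45.6-fold lower in the epithelial cells at 1.18 against 53.9 CPM. Ppbp and Pf4 are platelet chemokine genes, and 1 supporting-rule cell held 98% and 96.4% of that group's UMIs of these genes.

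Cell cycle genes were the gene group with the most members past a 2-fold ratio. Of 25 tested genes of G2 and mitosis, 25 were higher in the epithelial cells, and their summed level was 5546 CPM (5508 to 5585) against 1562 in the supporting-rule cells, a log2 ratio of 1.83. Top2a, the DNA topoisomerase of dividing cells, stood at 298 and 53.8 CPM. Mki67, the proliferation antigen, stood at 53 and 10.3 CPM, the mitotic kinase gene Aurkb at 84.6 and 16.3, and Ccnb1 (cyclin B1) at 159.6 and 54.5. The mesenchyme-marker cells were close to the epithelial cells, with a summed level of 4539 CPM.

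Of 22 tested S phase genes, 15 were higher and none lower, with summed levels of 2596 and 1227 CPM. Rrm2, a ribonucleotide reductase subunit, had the largest ratio among the tested genes of this group, at 242 against 43.2 CPM. Pcna, the sliding clamp of replication, stood at 184 and 65.1 CPM. The helicase subunit genes Mcm2, Mcm4 and Mcm6 stayed within 2-fold, at 91.1, 66 and 133 CPM against 53.5, 41.2 and 102.

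CDK inhibitors went the other way, with 3 of 4 tested members lower. Cdkn1c (p57) stood at 614 CPM (602 to 627) in the epithelial cells, 3640 (3620 to 3660) in the supporting-rule cells and 1026 in the mesenchyme-marker cells. Cdkn1a (p21) stood at 6.74, 123 and 14.3 CPM in the same 3 groups, and Cdkn1b (p27) at 12.1, 77 and 12 CPM. The fourth, Cdkn2d, was level at 31.7 and 32.6 CPM. Cdkn2c did not meet the minimums, at 3.89 against 1.1 CPM.

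Per cell, at 5000 UMIs each, the epithelial cells carried a median of 21 UMIs of G2 and mitosis genes (quartiles 8 and 40, range 0 to 91). The supporting-rule cells carried a median of 3 (quartiles 2 and 5, range 0 to 89). The ranges overlapped almost wholly, while the lower quartile of the epithelial cells lay above the upper quartile of the supporting-rule cells. For S phase genes the medians were 11 and 5 UMIs, with quartiles of 8 and 17 against 3 and 7. The mesenchyme-marker cells had a median of 8 UMIs of G2 and mitosis genes and an upper quartile of 32.

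**Figure D3:**
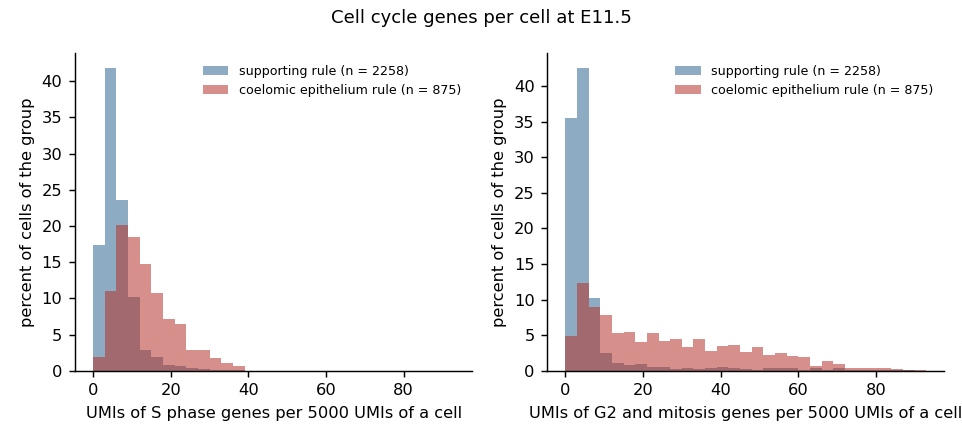
UMIs of S phase genes (left) and of G2 and mitosis genes (right) per 5000 UMIs of a cell (horizontal axes) as the percent of cells in each group (vertical axes, bins of 3 UMIs) for the 875 epithelial cells (red) and 2258 supporting-rule cells (blue). The supporting-rule cells pile up near the medians of 5 and 3 UMIs, while the epithelial cells spread around medians of 11 and 21.

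HOX genes were higher in the epithelial cells throughout the tested set. The table held 37 HOX genes, 8 met the minimums and all 8 were at least 2-fold higher than in the supporting-rule cells. Summed over all 37, the level was 831 CPM (816 to 846) against 174, with 645 in the mesenchyme-marker cells. The HoxD cluster on chromosome 2 differed most, at 501 against 43.4 CPM (11.6-fold, log2 interval 3.45 to 3.61). HoxA summed to 63.3 and 26.4 CPM (2.4-fold), HoxB to 41 and 13.6 (3.02-fold) and HoxC to 226 and 90.9 (2.49-fold). The intervals of the log2 ratio of the other 3 clusters, 1.13 to 1.4, 1.42 to 1.77 and 1.24 to 1.39, all lay below that of HoxD.

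Within HoxD the signal came from 4 genes. Hoxd4 stood at 58.2 CPM in the epithelial cells and 7.18 in the supporting-rule cells, Hoxd8 at 37.2 and 2.83, Hoxd9 at 355 (346 to 365) and 30.4, and Hoxd10 at 46.4 and 2.48. The 5′ genes of the cluster were near the floor, with 17 UMIs of Hoxd11 and 2 of Hoxd13 over the 875 cells. Against the mesenchyme-marker cells the order of the clusters changed. HoxD was still higher in the epithelial cells at 501 against 222 CPM, HoxA was lower at 63.3 against 118, and HoxC was close at 226 against 254. Hoxa5 stood at 10.3 CPM in the epithelial cells and 26.3 in the mesenchyme-marker cells, and Hoxa9 at 4.66 and 14.7.

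**Figure D4:**
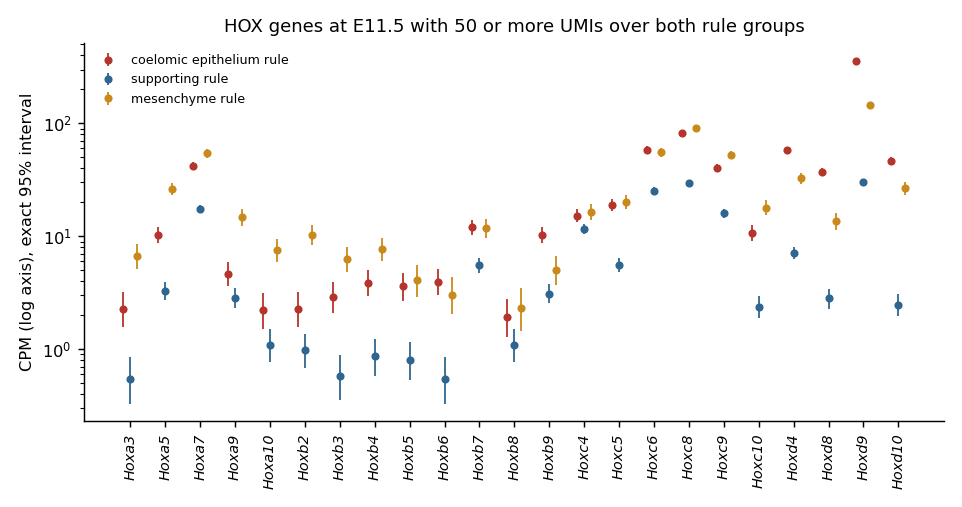
CPM on a log axis (vertical) of the HOX genes with at least 50 UMIs over the epithelial and supporting-rule cells (horizontal), with exact 95% intervals, in epithelial (red), supporting-rule (blue) and mesenchyme-marker cells (gold). The red points of Hoxd4, Hoxd8, Hoxd9 and Hoxd10 lie above both other groups, whereas for the HoxA genes shown the gold points are the highest.

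The promoter windows of the 3 neighbouring genes Hoxd10, Hoxd9 and Hoxd8 are shown because these genes were higher together. They come from RefSeq (GRCm38.p6, plus strand, 250 bases before to 50 after the start, CG dinucleotides in capitals) and lie at chr2:74691641-74691940, chr2:74697513-74697812 and chr2:74704365-74704664. They hold 22, 20 and 6 CG dinucleotides, and 23.1%, 26.5% and 56.4% of all windows hold at least as many. The TATA box letters TATAAA, searched on both strands, occur in none of the 3, nor in that of Upk3b, and in 13.6% of all windows. The libraries measured RNA and hold no reading of these sequences themselves.
Hoxd10: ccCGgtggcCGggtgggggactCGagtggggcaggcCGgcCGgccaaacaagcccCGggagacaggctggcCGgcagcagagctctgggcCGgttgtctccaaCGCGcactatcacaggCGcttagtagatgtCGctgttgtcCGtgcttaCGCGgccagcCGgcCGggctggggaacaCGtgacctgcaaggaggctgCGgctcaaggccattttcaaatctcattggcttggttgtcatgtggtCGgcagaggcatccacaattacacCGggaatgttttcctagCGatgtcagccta
Hoxd9: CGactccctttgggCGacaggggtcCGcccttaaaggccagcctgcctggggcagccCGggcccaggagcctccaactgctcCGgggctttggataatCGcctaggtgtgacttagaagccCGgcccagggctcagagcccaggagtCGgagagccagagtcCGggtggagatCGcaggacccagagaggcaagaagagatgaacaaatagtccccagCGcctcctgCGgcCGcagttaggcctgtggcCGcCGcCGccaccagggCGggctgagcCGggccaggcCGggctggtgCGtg
Hoxd8: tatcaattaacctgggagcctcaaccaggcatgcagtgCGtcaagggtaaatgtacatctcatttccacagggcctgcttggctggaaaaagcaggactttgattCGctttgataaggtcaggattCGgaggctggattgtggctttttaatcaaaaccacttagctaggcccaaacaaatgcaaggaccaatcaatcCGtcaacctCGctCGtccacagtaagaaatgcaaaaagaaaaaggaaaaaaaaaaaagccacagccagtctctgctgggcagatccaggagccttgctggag

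Regulators of the early gonad were present in both groups. Of 16 listed, 11 met the minimums, 4 were higher in the epithelial cells, 1 was lower and 6 were within 2-fold. Lhx9, a LIM homeodomain factor required for gonad formation, stood at 521 CPM (509 to 533) in the epithelial cells and 252 (247 to 258) in the supporting-rule cells, with a UMI in 88.1% and 61.5% of the thinned cells. In the endothelial-marker cells that share was 9.95%, and without thinning it was 97.8% in the epithelial cells. Emx2, a homeobox gene of the urogenital system, was equal at 217 CPM in both. Gata4 stood at 87.6 and 153 CPM and Nr5a1, the nuclear receptor steroidogenic factor 1, at 39.8 and 72.3, both lower in the epithelial cells but within 2-fold. Tcf21, a bHLH factor of mesothelium and mesenchyme, stood at 50.5 and 4.99 CPM and was highest in the mesenchyme-marker cells at 97.1. Cbx2, a Polycomb subunit, stood at 32.1 and 10.2 CPM, and Nr2f2, a nuclear receptor of mesenchyme, at 132 and 62.8. Nr0b1, the lower member, stood at 11.4 and 73.5 CPM.

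Genes of the supporting lineage outside the rule were lower in 8 of 9 tested cases, with summed levels of 369 and 1098 CPM. Kitl, the KIT ligand, stood at 37.7 and 228 CPM, Dmrt1 at 3.2 and 29.1, and Gng13, a G protein subunit gene, at 8.76 and 120.2. Amhr2, the receptor for anti-Müllerian hormone, was the exception within 2-fold, at 239.8 and 355 CPM. Foxl2, the ovarian forkhead factor, had 0 UMIs in the epithelial cells and 0.115 CPM in the supporting-rule cells at this stage.

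Mesenchyme genes were higher than in the supporting-rule cells in 7 of 8 tested cases, as the HOX genes were. Dcn (decorin) stood at 86.9 CPM in the epithelial cells, 5.31 in the supporting-rule cells and 98.1 in the mesenchyme-marker cells. Col3a1 stood at 133, 31.7 and 224 CPM, Dlk1 at 289, 91 and 343, and Pdgfra at 29.5, 10.01 and 81. The mesenchyme-marker cells were chosen by these same 14 genes with the epithelial cells left out, so their higher levels are fixed by that choice and are given for scale. Lum stood at 0.626 CPM against 25.6 in the mesenchyme-marker cells, Postn at 1.39 against 23.7, Col1a1 at 13 against 125, and Ogn had 0 UMIs. The 14 genes summed to 752 CPM in the epithelial cells, 226 in the supporting-rule cells and 1709 in the mesenchyme-marker cells. A share of such cells among the 875 was not tested as a source of these values.

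In the retinoic acid pathway 2 of 4 tested members were higher and 1 was lower. Aldh1a2, the main retinoic acid synthesis enzyme of the embryo, stood at 196 CPM (189 to 203) in the epithelial cells, 27.1 (25.4 to 28.9) in the supporting-rule cells and 65.1 in the mesenchyme-marker cells. It had a UMI in 58.5% of thinned epithelial cells, 12.1% of supporting-rule cells and 4.71% of endothelial-marker cells, and in 90.7% of the epithelial cells without thinning. Crabp2, which carries retinoic acid to its receptors, stood at 97.9 and 18.4 CPM. Dhrs3, which reduces retinaldehyde, was the lower member at 14 and 77.7 CPM. The degrading enzyme gene Cyp26b1 did not meet the minimums, at 0.904 and 12.1 CPM, and Cyp26a1 had 0 UMIs in both groups.

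Among WNT genes outside the rule, 5 of 8 tested members were higher and none was lower. The ligand gene Wnt5a stood at 75.9 CPM against 11.7 in the supporting-rule cells, but also at 77.6 in the mesenchyme-marker cells. The feedback targets Axin2, Sp5 and Nkd1 stood at 41.8, 98.4 and 109 CPM against 15.1, 40.3 and 29.6. In the mesenchyme-marker cells they stood at 15.6, 25.9 and 78.7 CPM. The remaining higher member, Sfrp1, stood at 37.2 CPM against 14.9, and was highest in the mesenchyme-marker cells at 143. Lef1 was level in the epithelial and supporting-rule cells, at 78.4 and 72.3 CPM. Rspo1, the R-spondin ligand of ovarian development, was within 2-fold at 68.7 and 109.8 CPM. Of 9 tested IGF and FGF genes, the receptor gene Fgfr1 was higher (34.2 against 15.9 CPM) and Igf1 lower (37.3 against 77.6 CPM). Fgfr1 was higher still in the mesenchyme-marker cells, at 106.8 CPM. Fgf9 and Fgf10 did not meet the minimums, at 8.34 and 5.42 CPM against 0.808 and 0.404. In the platelet-derived and hedgehog lists, Pdgfc, a PDGF ligand gene, stood at 99.3 and 24.8 CPM and the hedgehog effector gene Gli3 at 21.8 and 8.91. In the mesenchyme-marker cells Pdgfc stood at 38.3 and Gli3 at 30.9 CPM. The NOTCH list held Lfng, a Notch glycosyltransferase gene below the minimums, at 17.2 and 1.27 CPM. Of its 5 tested members Dlk1 was higher, and Hey1 (16.4 against 50.8 CPM) and Numb (12.9 against 31.6 CPM) were lower. In the BMP list Id2, a target gene, was higher at 346 against 122 CPM and the ligand gene Bmp2 lower at 27 against 58.1. The other 4 of 6 tested genes were within 2-fold. Id2 stood at 596.5 CPM in the mesenchyme-marker cells. All 77 tested ribosomal protein genes were within 2-fold, with summed levels of 267200 and 268100 CPM.

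Markers of other cell types were few, with blood as the exception. The mesonephric tubule list summed to 20.02 CPM with 0 UMIs of Cdh16 and Ret, and the neural list to 7.09 CPM with 0 UMIs of Sox10 and Foxd3. The steroidogenic list summed to 6.6 CPM, the perivascular list to 18 and the immune list to 31.3. The endothelial list summed to 86.2 CPM, against 49.3 in the supporting-rule cells and 3084 in the endothelial-marker cells chosen by it, with the receptor gene Kdr at 29.6 and 5.19 CPM in the epithelial and supporting-rule cells. In the immune list 4 cells held 88.5% of the UMIs. The erythroid list summed to 5634 CPM, against 4790 in the supporting-rule cells and 5240 in the mesenchyme-marker cells. All 7 tested erythroid genes were within 2-fold of the supporting-rule level. Hbb-y had a UMI in 96.8%, 96.9% and 96.3% of the thinned cells of these groups. In the epithelial group 4 cells held 80.3% of the erythroid UMIs, while the median epithelial cell had 18 of them. Without the 5 cells that had over 1% of their UMIs from blood genes, 525 genes were at least 2-fold higher than in the supporting-rule cells and 583 lower. The germ cell list outside the rule summed to 63 CPM in the epithelial cells and 297 in the supporting-rule cells. Ifitm3 stood at 45 and 164.5 CPM in these groups, Utf1 at 4.8 and 100.6, Dppa3 at 3.4 and 16.4, and Pou5f1 at 0.834 and 3.12. The rule sets no limit on germ cell genes for the supporting-rule cells. The part of germ cells in these values was not tested.

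The 875 cells were not uniform, and supporting genes marked 1 axis of the difference. Cells with none of the 5 supporting rule genes (371 cells), with 1 (313), with 2 (142) and with 3 or more (49) had Cdkn1c at 505, 582, 767 and 1001 CPM. The supporting genes outside the rule summed to 336, 351, 432 and 478 CPM along the same classes. Hoxd9 stood at 378, 365, 310 and 298 CPM and Aldh1a2 at 209.5, 195, 172 and 185. Bst2 stood at 10.7, 11, 17.6 and 69.4 CPM. The G2 and mitosis genes had no such order, at 5738, 5072, 6016 and 5656 CPM. Median depth moved along with these classes, at 14392, 15408, 17477 and 19226 UMIs, as did the share of called doublets, at 0.539%, 1.92%, 2.11% and 8.16%. The part of depth and doublets in these differences was not tested.

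Clustering of the 875 cells on variable genes, without the rule genes, the germ cell list and the cell cycle lists, gave 5 sub-clusters of 271, 269, 212, 112 and 11 cells. The sub-cluster of 269 cells was led by Ccne2, Mybl2, Tcf19, Cdc6, Fam111a and Mcm10, genes linked to DNA replication and S phase, of which Cdc6 was left out of the clustering, and had the S phase list at 3982 CPM. In the sub-cluster of 212 cells the G2 and mitosis list stood at 10440 CPM. Its leading genes by ratio, Gm5483, S100a8, Lyz2, Stfa1, S100a9 and BC100530, include S100a8 and S100a9, which came from 1 cell as above. Without called doublets and cells rich in blood RNA, a choice made after seeing the data, its leading genes were the mitotic genes Gas2l3, Sapcd2, Fam83d, Arhgef39, Cdc25b and Hmmr. The sub-cluster of 271 cells was led by Hist1h2bc, Epcam, Mt2, Ccpg1os, Akr1cl and Mxd4 and had a lower G2 and mitosis level, 2995 CPM.

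The sub-cluster of 112 cells had the lowest G2 and mitosis level, 1908 CPM, and the highest Krt19 and Tcf21, at 97.8 and 106 CPM against 39.9 to 82.9 and 30.3 to 53.5 in the others. It held 4 of the blood-rich cells and 8 called doublets, and the globin genes Hba-a1, Hba-a2, Hba-x and Hbb-bh1, with Hemgn and Alas2, led it. With those cells left out, its 103 remaining cells were led by Cldn5, Tgfb1, Mgp, Sparcl1, Ecm1 and Hoxa5, with Hoxa5 at 35.6 CPM against 7.59 in the other epithelial cells. Cldn5 is known as an endothelial claudin and Mgp as a matrix protein of cartilage and vessel walls. The 11 cells of the smallest sub-cluster had Mt1, a metallothionein gene, at 429.8 CPM and the lowest Upk3b, 151 CPM. In this sub-cluster the G2 and mitosis list stood at 10040 CPM and Wt1 at 309 CPM. Its leading genes were Btbd7, Tut1, Spa17, Scrn3, 4933427D14Rik and Zfp58, each at most 52.8 CPM. With 11 cells at a median depth of 10918 UMIs, these levels rest on few UMIs per gene. In the other 4 sub-clusters Upk3b ranged from 321 to 354 CPM and Wt1 from 491 to 527. Gata4 ranged from 81.8 to 95.2 CPM over all 5.

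The genes with the highest variance to mean ratio over the thinned cells, among 3287 with a mean of at least 0.2 UMIs, were Hbb-y, Hba-a1, Hba-x, Hba-a2, Hbb-bt and Hbb-bh1, followed by Malat1, Actb, Hist1h2ap and Ube2c. The globin ratios, 84.1 for Hbb-bh1 to 562 for Hbb-y, lay between 0.936 and 1.13 without the 5 blood-rich cells. Ube2c, a mitotic ubiquitin-conjugating enzyme, and the histone gene Hist1h2ap stayed at 4.34 and 7.13. The median ratio over all those genes was 1.05.

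The same rule was then applied to the later libraries, where stage and library cannot be told apart. From E12.5 on it took 809, 658 and 567 cells, or 16.7%, 13.6% and 11.8% of all barcodes, after 17.8% at E11.5. With the rule applied to cells thinned to 5000 UMIs, the 4 stages gave 560, 546, 525 and 496 cells, or 11.4%, 11.3%, 10.8% and 10.4% of barcodes. As a share of the cells with at most 1 germ cell gene, the 4 stages gave 19.3%, 19.96%, 16.9% and 26.6%. The median depth of the chosen cells was 13557, 12428 and 10280 UMIs in these later libraries. Of 5894 genes that met the minimums between E11.5 and E14.5, 98 (1.66%) were at least 2-fold higher at E11.5 and 280 (4.75%) at least 2-fold lower, with a median log2 ratio of 0.06. The rule was the same at both stages, so its genes are again a description.

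Several genes that were higher in the epithelial than in the supporting-rule cells at E11.5 stood at comparable levels in the later epithelial cells. Hpgd stood at 126, 129, 109.8 and 104 CPM from E11.5 to E14.5, Bnc1 at 37.9, 41.3, 45.8 and 33, and Lrrn4 at 40.6, 43.6, 51.5 and 41.2. Aldh1a2 stood at 196, 161, 169 and 170.4 CPM, and Lhx9 at 521, 490.4, 514 and 433. Hoxd9 stood at 355 (346 to 365), 344, 288 and 209.8 CPM (199 to 221) in stage order, a 1.69-fold ratio between the ends. None of the 7 tested mesothelial genes and none of the 26 tested G2 and mitosis genes passed 2-fold between E11.5 and E14.5. The G2 and mitosis list summed to 5546, 5543, 3784 and 3971 CPM. The typical cell differed more than these sums, with a median of 21, 19, 5 and 5 UMIs of the list per 5000 UMIs in stage order, and lower quartiles of 8, 6, 3 and 3. The upper quartiles were 40, 40, 26 and 25.

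All 3 tested keratins outside the rule were at least 2-fold lower at E11.5 than at E14.5. Krt8 stood at 59.8, 81.5, 113 and 299 CPM in stage order and Krt18 at 83.5, 135, 175 and 345. Krt19, a rule gene, stood at 51.7 (48.1 to 55.6), 84.5, 131 and 295 (282 to 309) CPM, Krt7 at 106, 116, 146 and 224, and Upk3b at 339, 358, 434 and 521. Tm4sf5 differed little, at 192, 156, 185 and 199 CPM.

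**Figure D5:**
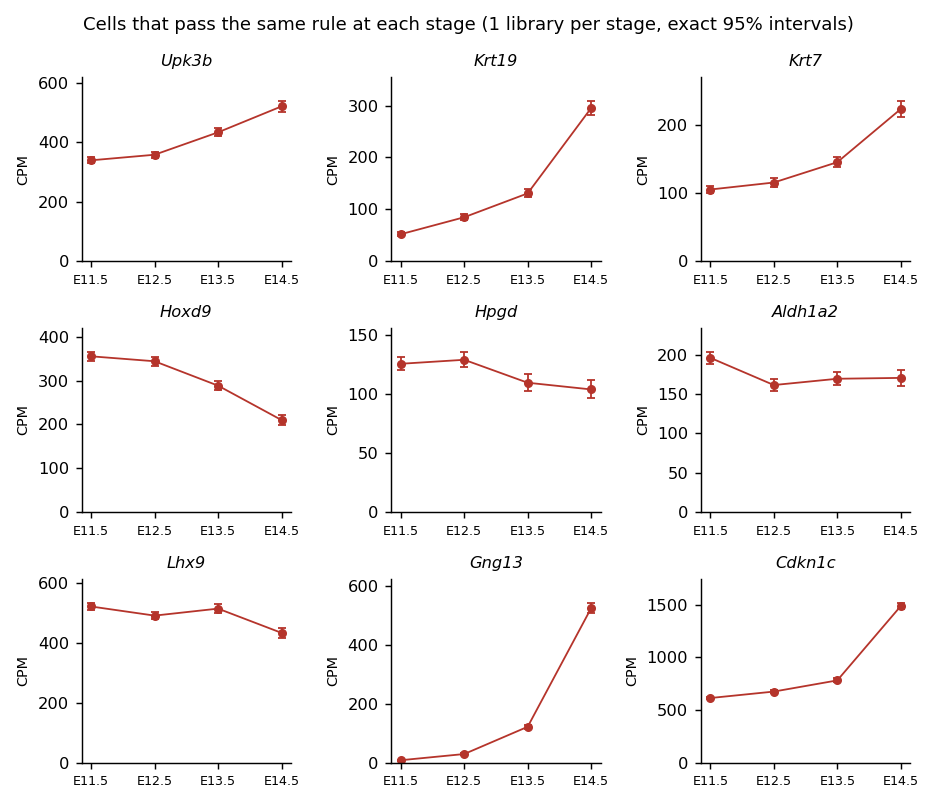
CPM (vertical axes from 0, exact 95% intervals) of 9 genes in the cells that met the same rule at each of the 4 stages (horizontal axes, 875, 809, 658 and 567 cells, 1 library each). Upk3b, Krt19, Krt7, Gng13 and Cdkn1c are lowest at E11.5, Hoxd9 and Aldh1a2 are highest there, and Hpgd lies between 104 and 129 CPM throughout.

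The supporting genes of the rule, which can be present in these cells as long as their mean stays lower, summed to 84.2, 128, 220.3 and 448 CPM in stage order. Gng13 stood at 8.76, 29.7, 122 and 524 CPM, a 59.8-fold difference between the first and last stage. Cdkn1c stood at 614, 675, 782 and 1486 CPM and Cdkn1a at 6.74, 7, 14.2 and 48.1. Besides Gng13 and the adult-type globin gene Hbb-bs, the genes lowest at E11.5 were Crygb, Svs5, Cst12, Mia, Nrap and Mhrt. Each of these 6 had at most 11 UMIs over the 875 cells. Cst12, a cystatin gene, stood at 0.695, 3.41, 15.6 and 68.6 CPM, and Crygb, with 3 UMIs at E11.5, gave a log2 ratio of -6.81 (-9.11 to -5.24).

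Highest at E11.5 were the embryonic globin genes Hbb-bh1, Hba-x and Hbb-y, then S100a9 and S100a8 from 1 cell. The 5 richest cells held 82.5%, 85.6% and 76% of the UMIs of these globin genes in that order. The globin difference was not limited to those cells. A UMI was found in 22.1%, 45% and 96.8% of the thinned E11.5 epithelial cells, against 0.353%, 1.94% and 31.75% at E14.5. These E11.5 shares were not particular to the epithelial cells. They were 24.4%, 44.95% and 96.9% in the supporting-rule cells and 23.6%, 46.4% and 96.3% in the mesenchyme-marker cells. In the endothelial-marker cells they were 24.1%, 43.98% and 93.2%. Next by ratio came Asb4, Msx1 and Il15, which were also spread over many cells. Asb4, an ankyrin repeat gene, stood at 99.7 (94.6 to 105), 63.9, 34.1 and 12.6 CPM in stage order. Msx1, a homeobox target of BMP signalling, stood at 45.9, 15, 7.93 and 6.96 CPM, and it was higher in the E11.5 supporting-rule cells, at 227. Il15, an interleukin gene, stood at 20.9, 9.91, 7.93 and 3.48 CPM. At E11.5 it had a UMI in 7.89% of the thinned epithelial cells and 26.1% of the supporting-rule cells. Asb4 had a UMI in 36.3% and 6.64% of these groups, and in 64.4% of the endothelial-marker cells. Crabp2 stood at 97.9, 62.3, 47.6 and 19.1 CPM and Id2 at 346, 281, 255 and 151, whereas Aldh1a1, another retinoic acid synthesis enzyme, went from 17 to 17.7, 32.7 and 92 CPM.

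Mesenchyme genes stood beside these stage differences. Of 10 tested, 5 were at least 2-fold lower at E11.5 than at E14.5, and the list summed to 752, 874, 1343 and 1217 CPM. Dcn stood at 86.9, 77.6, 126 and 210.4 CPM and Col1a1 at 13, 24.2, 46.2 and 69.8. Of 10 tested IGF and FGF genes, 4 were lower at E11.5 and none higher, with Igf1 at 37.3 CPM at E11.5 and 84.6 at E14.5. Acta2, a smooth muscle actin gene of the perivascular list, stood at 3.34, 6.5, 25.4 and 89 CPM. The part of other cells in these stage differences was not tested.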

How the data were processed

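Single cells of 4 libraries, 1 per stage, were measured with the 10x Chromium 3′ kit, version 2. The submitters' processing notes name Cell Ranger 2.2.0 and mm10. The authors deposited natural log values, in which 1 was added to each gene's UMIs after scaling every cell to a total of 10000, a unit read from the values. All 69792436 values above 0 were whole multiples of 1 UMI at a relative tolerance of 1e-06, so UMI counts were recovered for 19321 genes and 19387 cells. The lowest E11.5 cell had 8823 UMIs. The cell rule was applied to the deposited values.

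Group sums were scaled to CPM. Intervals at 95% are exact Poisson for CPM, exact binomial for log2 ratios and Clopper-Pearson for shares. A gene was compared with at least 50 UMIs over both groups and 20 CPM in the higher, and counted as higher or lower at a ratio of at least 2. The floor for a group at 0 was 3 UMIs, and rule genes were not counted. Duplicated molecules are removed by the UMIs, but capture and library variation lie outside the intervals.

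Doublets were called on the E11.5 library with Scrublet in scanpy 1.11.5 (assumed rate 0.06, threshold 0.266), which marked 120 of 4916 cells (2.44%). They were kept, and results without them are under the alternatives. Cells were not otherwise filtered: 3 E11.5 cells had over 20% mitochondrial UMIs. Sub-clusters used Leiden at resolution 0.5 on 1951 variable genes, 20 principal components and 15 neighbours. Endothelial-marker cells had at least 3 of 8 endothelial markers. Mesenchyme-marker cells had at least 5 of 14 mesenchyme markers, and this group was defined after the data were seen. Both groups exclude the epithelial and supporting-rule cells. Promoters come from RefSeq.

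The members and gene lists were chosen with earlier results of these data known. Some genes are in more than 1 list (Wt1, Aldh1a2, Nr0b1, Cdkn1b, Bmp2, Dlk1, Hpgd, Hoxd9, Pdgfra, Notch3 and Epcam). The rule genes Upk3b, Tm4sf5, Upk1b and Krt7 are also among the markers given for these cells. Besides the lists, the text names the 15 genes with the largest ratio in each direction against the supporting-rule cells and the 8 in each direction against E14.5, without ribosomal, mitochondrial and rule genes. A few genes that these rules or lists would name are not reported here. The text also names 6 leading genes per sub-cluster and the 10 with the largest variance to mean ratio. Alternatives tried were other cell rules, minimums, ratios, scales, thinning depths, doublet and mitochondrial filters and resolutions.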

Additional observations from a re-analysis of the deposited data

How the results depend on the processing

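The alternatives were run on cell counts, counts of genes, 8 summed gene groups, 3 shares of cells and the number of sub-clusters, and none of the summed ratios reversed. Single genes, HOX clusters and levels by stage were not rerun. Asking for at least 3 epithelial genes left 674 cells, with a summed mesothelial log2 ratio of 0.58 in place of 0.54. Applying the rule to cells thinned to 5000 UMIs left 560, 546, 525 and 496 cells in stage order. Of the 560, 546 were among the 875. The supporting-rule cells were also chosen anew on thinned cells, which gave 1380 in place of 2258. Between these groups the log2 ratios were 2.44 for HOX, 1.24 for S phase, 2.40 for G2 and mitosis, -2.64 for CDK inhibitors and -1.67 for supporting genes. The main groups gave 2.25, 1.08, 1.83, -2.53 and -1.58. Without called doublets HOX gave 2.37, S phase 1.14, G2 and mitosis 1.93 and CDK inhibitors -2.60. With at most 1 supporting gene per cell these were 2.31, 1.11, 1.80 and -2.71, with supporting genes at -1.68. With equal weight per cell they were 2.34, 1.17, 2.0 and -2.62. On a median-of-ratios scale mesothelial genes gave 0.50, S phase 1.04, G2 and mitosis 1.79 and CDK inhibitors -2.57. With supporting-rule cells limited to 1 germ cell gene, an alternative chosen after seeing the data as was leaving out blood-rich cells, G2 and mitosis gave 1.88.

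A ratio of at least 4 left 139 genes higher and 217 lower against the supporting-rule cells, and 16 and 79 against E14.5. Without the CPM minimum these counts were 1288, 1806, 292 and 803. Resolutions of 0.3 and 1 gave 3 and 10 sub-clusters. Thinned to 2000 UMIs, the share of epithelial cells with a UMI was 19.1% for Hpgd, 49.3% for Hoxd9 and 62.9% for Lhx9. No paired analysis was possible because each stage has 1 library. That also means that variation between embryos and between libraries could not be estimated.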
